A study of Mus musculus with 8 samples.

Results

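The genes described here encode nuclear-made parts of the mitochondrion: subunits and assembly factors of the respiratory chain, subunits of the ATP synthase, proteins of the mitochondrial ribosome, and the machinery that imports proteins through the outer and inner membranes. They were chosen by gene symbol (Nduf, Uqcr, Cox with a number, Atp5, Sdha to Sdhd, Mrpl, Mrps, Timm and Tomm) with a mean of at least 1 FPKM over the 8 libraries. FPKM is the number of fragments scaled by transcript length and by the total mapped in a library. The rule found 59 of the 6287 genes listed, and 0 further genes carried such a symbol at a lower level. The lowest mean was 2.56 FPKM, for Ndufaf4.

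Expression was measured by RNA-seq in bone marrow derived macrophages, which are primary macrophages grown in culture from marrow precursors. The groups were 4 wild-type samples, which served as controls, and 4 samples from PAD4-/- mice. PAD4, encoded by Padi4, converts arginine to citrulline in proteins. All 8 sample titles, of both genotypes, carry the tag con, which the labels do not explain. The labels name no treatment, age, strain or sex, or which mouse gave which library. The study's design text calls the samples of a group independent. Where cultures shared an animal, the p-values may reflect technical spread only.

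The respiratory chain passes electrons from NADH and succinate to oxygen through complexes I to IV, and the ATP synthase uses the proton gradient that this builds. A few core subunits are made inside the mitochondrion by its own ribosome, whose proteins are all encoded in the nucleus, and the remaining subunits are imported through the TOM complex of the outer membrane and the TIM complexes of the inner membrane. In macrophages this machinery is known for its link to activation state, since inflammatory stimuli shift these cells from respiration towards glycolysis.

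Grouped by symbol, the 59 genes were 6 complex I subunits, 5 complex IV subunits, 5 ATP synthase subunits and 7 assembly factors. The rest were 17 proteins of the large and 10 of the small mitoribosomal subunit, 6 inner membrane and 3 outer membrane import genes. Ndufa4 is counted with complex I by its symbol, though since assigned to complex IV. The 59 genes lie on 19 chromosomes. The genes listed held 0 subunits of complexes II and III by these symbols, and 0 of 13 mitochondrially encoded genes. The 59 thus cover only part of this machinery, and neither of these sets could be analysed.

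A promoter sequence from RefSeq (GRCm38.p6), from 250 bases before to 50 bases after the annotated start, was matched for 51 of the 59 genes, some with several starts, 54 promoters in all. The promoters were searched on both strands for motifs of 3 factors known to act on nuclear genes of the mitochondrion: GCGCANGCG for NRF1, CCGGAAG for the ETS family (which includes GABP), and AAGATGGCG for YY1. The ETS motif was in 23 of the 54 promoters (42.6%), against 18.8% of 6077 promoters of genes tested and 8.86% of all 32851 promoters in the table. The NRF1 motif was in 12 (22.2%, against 14.0% and 6.25%), and the YY1 motif in 3 (5.56%, against 3.21% and 1.40%). These shares are a description of the windows searched. The median GC content was 58.3% for these genes and 61.7% for genes tested. The sequences below include Mrps26 and Ndufaf4, which are 2 of the 3 genes called between genotypes. The third is of Mrps21, a far more abundant gene of the same ribosomal subunit as Mrps26 that was not called. Mrps21 was picked because it holds both the NRF1 and the ETS motif, so sharing them with Mrps26 is no finding. Of the 51 genes, 6 held 2 or more of the motifs and 19 held none. Capitals mark the NRF1 and ETS motifs.
Mrps26, plus strand of chr2:130563507-130563806: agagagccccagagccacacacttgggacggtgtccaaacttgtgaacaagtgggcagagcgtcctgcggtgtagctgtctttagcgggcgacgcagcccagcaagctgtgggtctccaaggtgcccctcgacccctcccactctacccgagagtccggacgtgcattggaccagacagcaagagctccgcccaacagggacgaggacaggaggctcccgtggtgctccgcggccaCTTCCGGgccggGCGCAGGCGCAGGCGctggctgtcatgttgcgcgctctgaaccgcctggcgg
Ndufaf4, plus strand of chr4:24897833-24898132: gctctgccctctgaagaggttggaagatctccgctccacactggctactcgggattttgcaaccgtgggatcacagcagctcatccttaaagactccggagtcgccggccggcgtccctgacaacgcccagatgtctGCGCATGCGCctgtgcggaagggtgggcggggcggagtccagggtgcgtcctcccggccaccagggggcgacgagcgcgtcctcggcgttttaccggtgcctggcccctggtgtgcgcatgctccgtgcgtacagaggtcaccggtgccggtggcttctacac
Mrps21, minus strand of chr3:95871465-95871764: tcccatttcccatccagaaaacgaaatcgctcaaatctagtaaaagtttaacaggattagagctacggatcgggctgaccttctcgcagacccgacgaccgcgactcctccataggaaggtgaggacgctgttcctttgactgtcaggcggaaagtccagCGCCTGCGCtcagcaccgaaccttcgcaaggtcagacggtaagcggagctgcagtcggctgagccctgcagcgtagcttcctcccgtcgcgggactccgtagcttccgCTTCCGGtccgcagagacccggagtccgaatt
Mrps26 holds 2 overlapping NRF1 matches and 1 ETS match, and Mrps21 holds 1 of each. The 2 NRF1 matches of Ndufaf4 are the same palindromic stretch read on both strands.

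The libraries differed within the knockout group. On the first principal component of all genes tested, accounting for 70.6% of the variance, scores ran from -0.12 to -0.108 in wild type. In the knockout, replicates 1 and 2 scored -0.012 and 0.019, whereas replicates 3 and 4 scored 0.236 and 0.214. Of 11 macrophage markers listed, 9 were measured. Their summed FPKM ran from 17820 to 18450 in wild type and from 19450 to 25330 in the knockout. Most of that sum came from the lysozyme gene Lyz2 (16270 to 16830 in wild type and 17622 to 23295 in the knockout). Of the 9, 7 were called higher, where 21.1% of all genes tested were, and Mertk and Cebpa were not called. Of other cell types, the dendritic cell list held Irf8, which macrophages also express, at 22.3 to 28.45 FPKM and not called. The neutrophil gene Lcn2 was at most 1.13 FPKM, and the fibroblast genes Col3a1 and Pdgfra at most 0.70 and 0.14. Of the other dendritic cell genes with values, Zbtb46 was at 0.39 to 0.71 FPKM and Xcr1 at 0.23 to 0.40. Ccr7 was listed at 0 in 6 of 8 libraries. These lists were only partly covered, with values for 1 of 10 neutrophil, 2 of 5 fibroblast and 4 of 6 dendritic cell markers. Markers sought for erythroid cells, lymphocytes, basophils or mast cells had no values at all. Whether such cells were present was therefore not tested. The depth of the libraries is unknown. Padi4 itself was not analysed here, and the labels therefore have no check from the deleted gene.

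Few of these mitochondrial genes differed between genotypes. Called genes are those with a limma adjusted p below 0.05 (Benjamini-Hochberg, over the 5674 genes tested). Of the 59, 2 were called higher (Ndufaf4 and Mrps26) and 1 lower (Cox17), which is 5.08%, whereas 27.7% of all genes tested were called (21.1% higher and 6.61% lower). At an unadjusted p below 0.05 there were 6 of the 59, against 2465 of the 5674. The difference in share was not tested. With median-of-ratios scaling, 0 of the 59 were called higher and 7 lower, and 20.3% of all genes tested were called (9.24% higher and 11.1% lower). All 59 ratios of mean FPKM, knockout over wild type, lay between 0.8355 and 1.30. In bulk RNA, fewer cells with a transcript and less transcript per cell cannot be told apart.

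The fold changes were also small beside those of other genes. The median absolute log2 fold change was 0.064 for the 59 and 0.13 for all genes tested. Fold changes here are of log2(FPKM + 1), and low genes therefore appear to change less than they do. A log2 fold change of at least 0.25 in either direction was seen in 3 of the 59, the same 3 that were called, and in 21.3% of all genes tested. The 95% interval of the fold change lay wholly within 0.25 of no change for 37 of the 59 (62.7%, against 42.9% of all genes tested) and within 0.5 for 57 (96.6%, against 86.4%). The exceptions to the wider limit were Mrps26 and Timm10. The spread between libraries was not smaller for these genes: their median SD on the log2 scale was 0.072 in wild type and 0.11 in the knockout, against 0.066 and 0.099 over all genes tested.

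**Figure D1:**
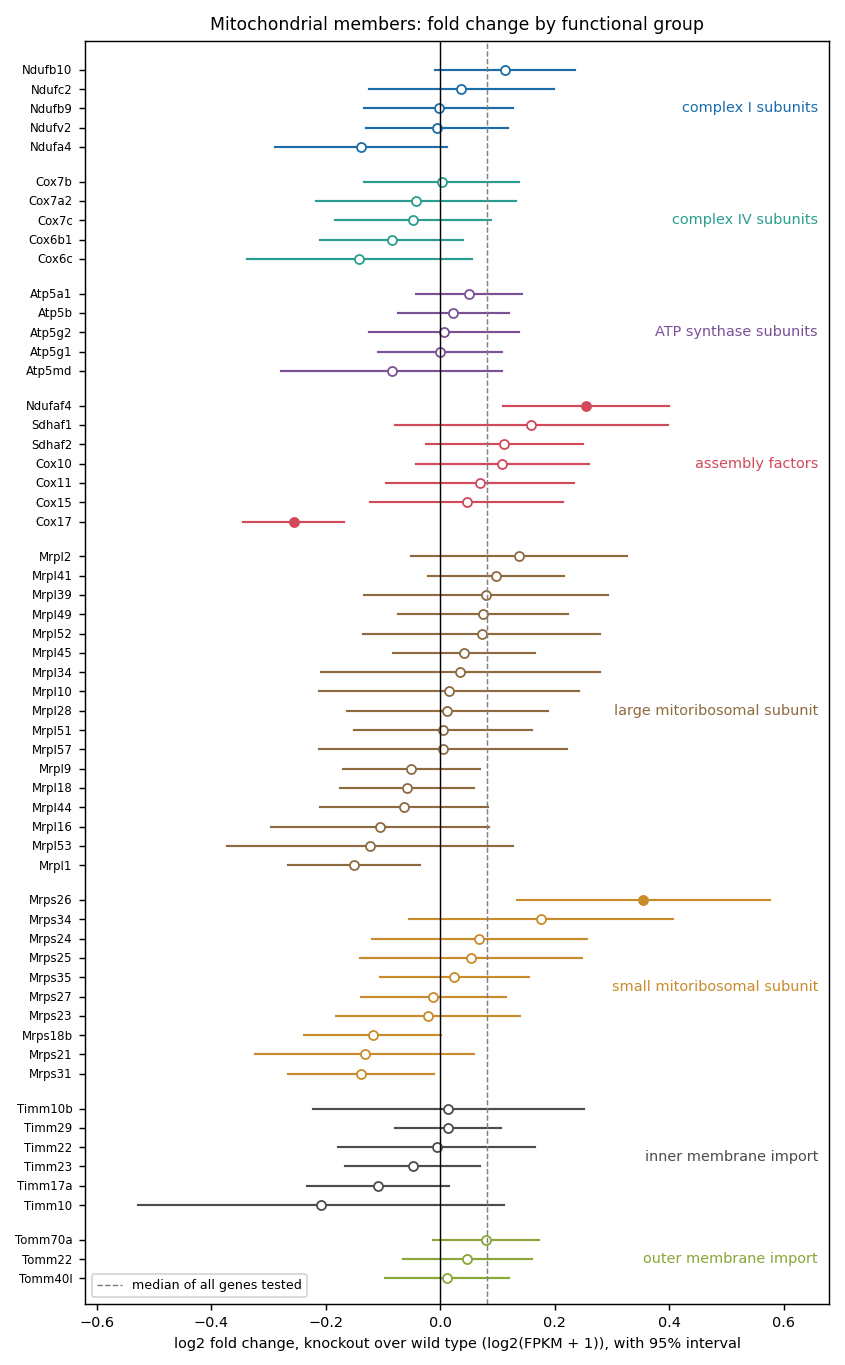
Log2 fold change of 58 of the 59 genes, knockout over wild type on the log2(FPKM + 1) scale, with its 95% interval from limma (n = 4 libraries per genotype), grouped by function. Filled circles are the 3 called genes, Ndufaf4, Cox17 and Mrps26, and the dashed line is the median of all genes tested, 0.082.

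The 3 called genes were an assembly factor of complex IV, an assembly factor of complex I and a mitoribosomal protein. Cox17 encodes the copper chaperone that supplies copper for cytochrome c oxidase (complex IV). It lies on chromosome 16, 38346983 to 38352763 in GRCm38.p6. It was at 120.84, 111.28, 112.42 and 113.91 FPKM in wild-type replicates 1 to 4 and at 95.58, 95.45, 94.55 and 97.45 in knockout replicates 1 to 4. Every knockout library was below every wild-type library, and the 4 knockout values were close together. Cox17 fell by 16.45% in mean FPKM, from 114.6 ± 4.29 to 95.8 ± 1.22 (SD, n = 4), with a log2 fold change of -0.26 (SE 0.040, interval -0.34 to -0.17, adjusted p = 0.00342 in limma). The call held in all 21 alternatives, with adjusted p-values from 5.95e-04 to 0.0158, and the ratio was 0.8334 with knockout replicates 1 and 2 alone against 0.8355 with all 4.

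Ndufaf4 encodes a factor needed early in the assembly of complex I. It lies on chromosome 4, 24898083 to 24905001, where the predicted gene Gm46848 overlaps it, and the sources used here do not say whether counting used strand. It was at 2.23, 2.45, 2.30 and 2.01 FPKM in wild type and at 2.86, 2.62, 2.93 and 3.08 in the knockout. The groups did not overlap, though knockout replicate 2 lay close to the highest wild-type library. The mean rose from 2.25 ± 0.183 to 2.87 ± 0.192 FPKM (SD, n = 4), a ratio of 1.28 and a log2 fold change of 0.25 (SE 0.065, adjusted p = 0.0193 in limma). The call was lost with median-of-ratios scaling (adjusted p = 0.0560), without wild-type replicate 1 (0.0519), without knockout replicate 4 (0.0551) and without knockout replicates 3 and 4 together (0.10). It was also lost with quantile normalization (0.134), a replicate block (0.0509) and the transcript length trend removed (0.0707). Median-of-ratios scaling without knockout replicates 3 and 4 lost it too (0.218). The call held in 12 of the 20 alternatives that tested the gene, and the smallest adjusted p was 0.00517 and the largest 0.218.

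Mrps26 encodes a protein of the small mitoribosomal subunit and lies on chromosome 2, 130563757 to 130565394. It was at 10.26, 7.74, 7.50 and 9.69 FPKM in wild type and at 10.54, 11.31, 11.12 and 12.89 in the knockout. The groups did not overlap, but wild-type replicate 1 came within a small step of knockout replicate 1. The mean rose from 8.80 ± 1.38 to 11.5 ± 1.01 FPKM (SD, n = 4), a ratio of 1.30, the largest of the 59, and a log2 fold change of 0.35 (SE 0.099, adjusted p = 0.0265 in limma). The call was lost with median-of-ratios scaling (adjusted p = 0.0750), without wild-type replicate 2 or 3 (0.0766 and 0.0738), without knockout replicate 4 (0.0677) and without knockout replicates 3 and 4 together (0.0854). It was also lost with quantile normalization (0.104) and the transcript length trend removed (0.0923). Median-of-ratios scaling without knockout replicates 3 and 4 lost it too (0.19). The call held in 13 of 21 alternatives, and the adjusted p spanned 0.0119 to 0.19.

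Groups also did not overlap for some genes that did not pass the test. Mrpl1, of the large mitoribosomal subunit, was at 7.42, 8.02, 7.41 and 7.77 FPKM in wild type and 7.14, 7.01, 6.62 and 6.43 in the knockout (ratio 0.888, adjusted p = 0.0552). Mrpl41 had a ratio of 1.09 and Tomm70a, a receptor of the outer membrane translocase, one of 1.06 (adjusted p = 0.181 and 0.165). In all, and with the 3 called genes, groups did not overlap for 5 genes higher and 2 lower in the knockout. Over all genes tested this was so for 31.1%, with 24.0% higher and 7.12% lower.

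**Figure D2:**
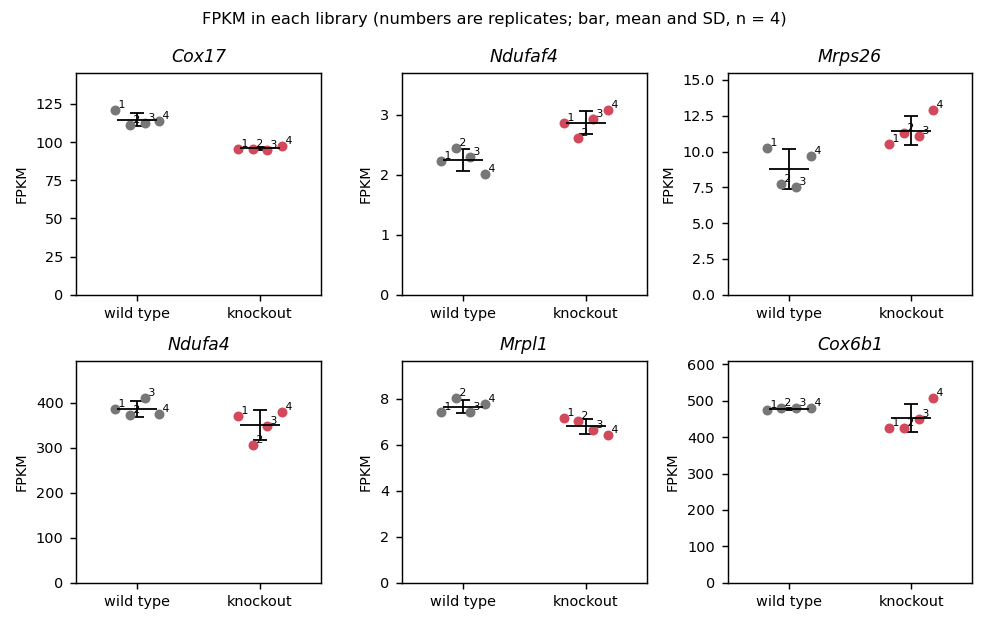
FPKM in each library for Cox17, Ndufaf4 and Mrps26, which were called, and for Ndufa4, Mrpl1 and Cox6b1, which were not, with replicate numbers beside the points and bars for the mean and SD (n = 4). Cox17 sits between 94.55 and 97.45 FPKM in the knockout and above 111 in wild type, and Cox6b1 is lower in knockout replicates 1 to 3 but not in replicate 4.

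None of the 16 subunits of the respiratory chain and ATP synthase was called by limma, and 1 of the 16 had an unadjusted p below 0.05. Their median log2 fold change was -0.0016, and 12 of the 16 intervals lay within 0.25 of no change. With library weights, which lower the influence of libraries far from their group, the genes called higher included Ndufb10 (log2 fold change 0.18), but those weights also raised the share of all genes called to 52.4% (39.3% higher and 13.1% lower). DESeq2 and edgeR need read counts and were not run.

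Among the genes with complex I symbols described here the ratios ran from 0.911 to 1.08. Ndufb10, an accessory subunit, was at 117 ± 4.49 and 127 ± 8.78 FPKM (SD, n = 4), a ratio of 1.08. The accessory subunit genes Ndufc2 and Ndufb9 had ratios of 1.03 and 0.999, and Ndufv2, a core subunit with an iron-sulfur cluster, one of 0.997. Ndufa4, named for complex I but since assigned to complex IV, was the most abundant of these genes and the lowest in ratio. It was at 385.49, 373.58, 410.74 and 374.42 FPKM in wild type and 371.72, 306.49, 348.20 and 380.72 in the knockout. The groups overlapped, with knockout replicate 2 lowest (log2 fold change -0.14, interval -0.29 to 0.013, adjusted p = 0.144).

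The 5 complex IV subunits with Cox symbols, a count without Ndufa4, had ratios of 0.913 to 1.005 and, except for Cox7b, a lower mean in the knockout. Cox6b1, which faces the intermembrane space, was at 474.30, 478.98, 478.96 and 480.88 FPKM in wild type and 425.22, 426.42, 449.74 and 507.15 in the knockout. The first 3 knockout libraries were below all wild-type libraries and the fourth was above them (log2 fold change -0.085, adjusted p = 0.263). Cox6b1 was called lower without knockout replicate 4 (adjusted p = 0.0374), without replicates 3 and 4 (0.0163) and on median-of-ratios scaling (0.0416), and its adjusted p spanned 0.00381 to 0.694 across alternatives. Cox6c was at 324.76, 338.66, 308.43 and 316.53 FPKM in wild type and 317.78, 278.08, 244.49 and 335.50 in the knockout, so that the groups overlapped (adjusted p = 0.238). Cox7c, among the most abundant of the 59, went from 497 ± 21.1 to 482 ± 40.2 FPKM (SD, n = 4), with an interval of -0.18 to 0.088. Cox7a2 and Cox7b had ratios of 0.9748 and 1.005.

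The 5 ATP synthase genes had ratios of 0.948 to 1.04. Atp5b, which encodes the catalytic beta subunit, had the highest mean of all 59 genes. It was at 494.33, 493.77, 498.61 and 540.23 FPKM in wild type and 502.48, 500.87, 529.72 and 525.86 in the knockout. The groups overlapped, and the interval of the log2 fold change was -0.073 to 0.12 (adjusted p = 0.7). Atp5a1, for the alpha subunit, had a ratio of 1.04. Atp5g1 and Atp5g2, which encode precursors of the same mature subunit c and may share reads, had ratios of 1.00 and 1.01, and Atp5md, a small membrane subunit, 0.948.

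The 7 assembly factors, apart from Cox17, had means of at most 10.02 FPKM. Their mean was higher in the knockout for 6 and lower for 1, Cox17 (85.7% higher, against 70.6% of all genes tested), and 2 were called (28.6%, near the 27.7% of all genes tested). Cox10 and Cox15, which make heme A for complex IV, were at 3.88 ± 0.433 and 4.69 ± 0.421 FPKM (SD, n = 4) in wild type, with ratios of 1.09 and 1.04. Cox11, which passes copper to cytochrome c oxidase, had a ratio of 1.07. Of these 4 complex IV assembly genes, 1 was called, Cox17, and Coa4, Coa6 and Taco1, complex IV factors with other symbols, were not called. The succinate dehydrogenase assembly factors Sdhaf1, which helps insert iron-sulfur clusters, and Sdhaf2, which helps attach FAD, had ratios of 1.13 and 1.09 (adjusted p = 0.269 and 0.185).

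Of the 27 mitoribosomal proteins, 1 was called, Mrps26. The 17 of the large subunit had ratios of 0.888 to 1.11, with none called by limma and 1, Mrpl1, at an unadjusted p below 0.05. Mrpl52 and Mrpl18 were the most abundant, at 81.2 ± 12.1 and 57.4 ± 3.24 FPKM (SD, n = 4) in wild type with ratios of 1.05 and 0.959. Mrpl41 and Mrpl57 were the lowest, at 3.97 and 4.23 FPKM in wild type. The means of Mrpl2, Mrpl39, Mrpl49, Mrpl45, Mrpl34, Mrpl28, Mrpl10 and Mrpl51, like those of Mrpl41, Mrpl52 and Mrpl57, were higher in the knockout, and those of Mrpl9, Mrpl44, Mrpl16, Mrpl53, Mrpl18 and Mrpl1 were lower, which makes 11 and 6.

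The 10 proteins of the small subunit were split evenly in direction, 5 with a higher and 5 with a lower mean. Mrps21 was the most abundant, at 156.65, 167.66, 163.45 and 176.71 FPKM in wild type and 156.28, 124.51, 161.73 and 166.85 in the knockout, where replicate 2 was low (adjusted p = 0.256). Mrps31 was at 7.25, 7.36, 7.72 and 7.69 FPKM in wild type and 7.29, 6.72, 6.12 and 6.82 in the knockout (ratio 0.898, adjusted p = 0.0920), and overlapped only through knockout replicate 1. Mrps34 had a ratio of 1.146, which became 0.999 with knockout replicates 1 and 2 alone. Mrps18b, Mrps23 and Mrps27 had ratios of 0.917, 0.986 and 0.989, and Mrps24, Mrps25 and Mrps35 1.05, 1.05 and 1.02.

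None of the 9 import genes was called by limma, and 0 had an unadjusted p below 0.05. In the inner membrane, Timm23 and Timm17a of the channel for proteins with a presequence had ratios of 0.968 and 0.926. Timm22, the channel for carrier proteins, and its partner Timm29 had ratios of 0.994 and 1.01. The small chaperones of the intermembrane space varied most between libraries. Timm10 was at 22.50, 29.11, 21.15 and 21.35 FPKM in wild type and 21.01, 16.60, 18.10 and 25.55 in the knockout, and its interval was wide, -0.53 to 0.11. Timm10b had a ratio of 1.02. In the outer membrane, the receptor genes Tomm22 and Tomm70a and Tomm40l, a relative of the channel gene Tomm40, had ratios of 1.03, 1.06 and 1.01, and all 3 intervals lay within 0.25 of no change.

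The fold changes of the 59 genes lay below those of the typical gene. Their median log2 fold change was 0.012, against 0.082 for all genes tested, and 57.6% had a higher mean in the knockout, against 70.6%. The 60 cytosolic ribosomal protein genes are shorter and far more abundant (medians of 688.75 bases and 602.6 FPKM, against 1129.5 and 21.92 for the 59). In fold change they were closer to the 59 than to all genes: their median was 0.0034, 55.0% had a higher mean, and 1 of the 60 was called. Median-of-ratios scaling brings the median of all genes to 0.0049, and there the median of the 59 was -0.070. The 7 called lower on that scale were Cox17, Mrpl1, Mrps31, Mrps18b, Ndufa4, Cox6b1 and Timm17a, with log2 fold changes of -0.34 for Cox17 and of -0.17 to -0.23 for the others. The sign of the median of the 59 thus depended on the scaling. Of the 3 calls on the deposited scale, Cox17 was also called with median-of-ratios scaling.

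**Figure D3:**
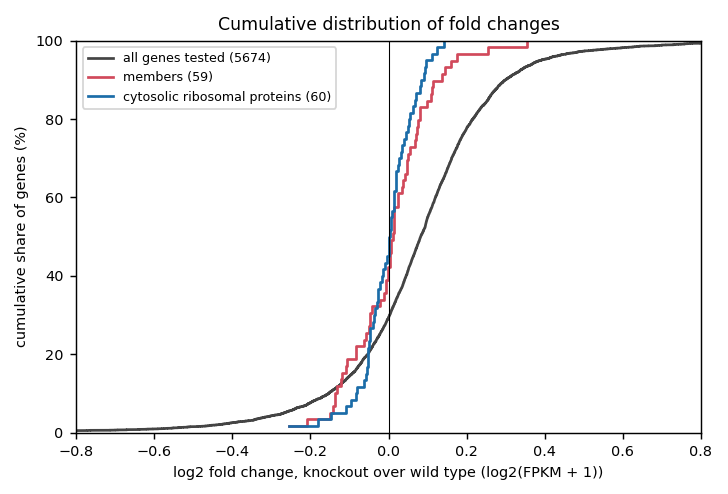
Cumulative share of genes by log2 fold change, knockout over wild type on the log2(FPKM + 1) scale, for all 5674 genes tested, the 59 mitochondrial genes and 60 cytosolic ribosomal protein genes. The medians are 0.082, 0.012 and 0.0034, both smaller sets span a narrower range than all genes, and the axis leaves out the most extreme of all genes.

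The position of the 59 genes also varied between knockout libraries. Their median deviation from the wild-type mean, on the log2 scale, was -0.019, -0.069, 0.028 and 0.093 in knockout replicates 1 to 4, against 0.053, 0.063, 0.11 and 0.095 for all genes tested. In wild type it ran from -0.021 to 0.033. Knockout replicate 2 was the lowest, with 45 of the 59 genes below the wild-type mean, and replicate 4 the highest, with 50 above it. Replicates 1 and 2 were both below replicates 3 and 4, the same division as on the first principal component. With median-of-ratios scaling all 4 medians were below 0, at -0.074, -0.13, -0.086 and -0.0070. The cytosolic ribosomal protein genes had their lowest medians in knockout replicates 2 and 3. The summed FPKM of the 59 genes was 4925 ± 66.0 in wild type and 4807 ± 314 in the knockout (SD, n = 4), and the lowest sum was 4437 in knockout replicate 2, which was 1.16% of the FPKM listed in that library.

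**Figure D4:**
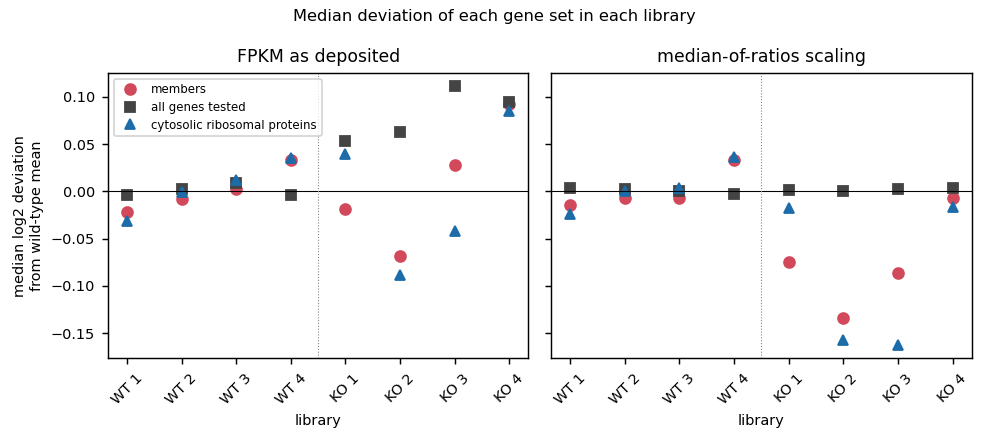
Median log2 deviation from the wild-type mean in each library (WT, wild type; KO, knockout) for the 59 mitochondrial genes, all genes tested and cytosolic ribosomal protein genes, on the deposited scale (left) and with median-of-ratios scaling (right). In knockout replicate 2 the mitochondrial genes sit at -0.069 and all genes at 0.063 on the deposited scale.

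Transcript length and level moved with these values. The median transcript length was 1129.5 bases for the 59 genes and 2345 for all genes tested. The 18 mitochondrial genes under 700 bases had a median log2 fold change of -0.045 and the 41 longer ones 0.015, while the 333 genes under 700 bases among all tested had 0.050 and the longer ones 0.084. In knockout replicate 2 the median deviation was -0.19 for the 18 short mitochondrial genes and 0.014 for the 333 short genes among all tested. By level, 10 of the 14 mitochondrial genes at or above 100 FPKM had a lower mean in the knockout, against 6 of the 17 under 10 FPKM. Across the 59 genes Spearman's rho of the log2 fold change was -0.33 with mean FPKM and 0.32 with transcript length. Over all genes tested rho was -0.17 and 0.096, with unknown lengths set to the median length. These values are a description over genes of the same libraries. With a smooth trend on transcript length removed from each library, 0 were called higher and 3 lower (Cox17, Mrpl1 and Mrps31), and the median of the 59 was -0.058 against 0.0029 for all genes.

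With knockout replicates 3 and 4 left out, 0 of the 59 were called higher and 3 lower, Cox17, Cox6b1 and Mrpl44, against 16.9% of all genes tested (11.7% higher and 5.13% lower). The median of the 59 was then -0.052. With median-of-ratios scaling as well, 0 were called higher and 9 lower, against 12.7% of all genes tested (4.90% higher and 7.81% lower). In the authors' deposited table, 1 of the 59 genes had a q-value below 0.05, Cox17, with a log2 fold change of -0.30 (q = 0.0472), whereas 20.4% of the genes tested here passed there. In the authors' deposited table the 59 genes had a median log2 fold change of -0.072, 45 of them negative, and all genes tested one of 0.012. Ndufaf4 and Mrps26 stood at 0.27 and 0.30 in the authors' deposited table (q = 0.171 and 0.226).

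**Figure D5:**
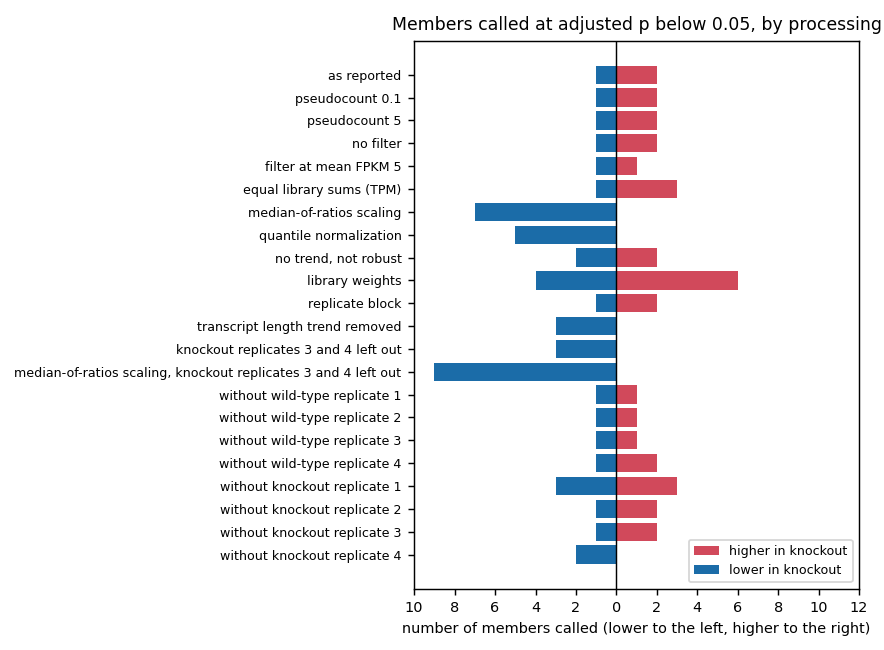
Number of the 59 genes called higher (right) and lower (left) in the knockout at an adjusted p below 0.05 under the processing as reported and 21 alternatives. The reported fit calls 2 higher and 1 lower, median-of-ratios scaling 0 and 7, and library weights 6 and 4.

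Other genes of the mitochondrion came from 11 lists kept apart from the symbol rule. Of the 60 measured, 6 were called higher and 2 lower (13.3%, against the 27.7% above). The lists were only partly measured, as with 5 of 18 electron carrier and ubiquinone genes, 5 of 18 citric acid cycle genes and 2 of 14 dynamics genes. Among the 5 electron carrier and ubiquinone genes, Coq10b, a ubiquinone-binding protein, fell from 33.6 ± 1.55 to 28.1 ± 2.12 FPKM (SD, n = 4). Cycs, cytochrome c, had a ratio of 0.915 without passing the test. Of 12 further assembly factors, 6 import and processing genes, 4 genes of mitochondrial DNA and transcription and 2 of dynamics and cristae, none was called by limma. An unadjusted p below 0.05 was found for 4, 0, 1 and 0 of them, and library weights called 3, 1, 1 and 0 of them higher and 1, 1, 0 and 0 lower. Of 10 translation factors and ribosome assembly genes, the RNA helicase gene Dhx30 rose from 7.195 ± 0.3065 to 9.52 ± 1.28 FPKM (SD, n = 4). Of 13 mitochondrially encoded genes, 0 were among the genes listed with values.

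Among 6 tested regulators of mitochondrial biogenesis, 2 rose, where 21.1% of all genes tested were called higher, so the count is no result about the list. Esrra, an orphan nuclear receptor that drives respiratory genes, was at 15.06, 15.17, 12.71 and 13.87 FPKM in wild type and 15.80, 18.02, 17.08 and 19.69 in the knockout, with no overlap (ratio 1.24, adjusted p = 0.0191). Hcfc1, a transcriptional co-regulator, rose by a ratio of 1.13. Both calls were lost with median-of-ratios scaling. The ETS factor subunit Gabpa had a ratio of 1.08 (adjusted p = 0.156), and Ppargc1b was below the minimum.

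Of 5 genes of pyruvate dehydrogenase and the citric acid cycle, Suclg2, a subunit of succinyl-CoA ligase, rose to a ratio of 1.26, and Ogdh, of the 2-oxoglutarate dehydrogenase complex, rose to 1.11 (adjusted p = 0.0470). The groups overlapped for Ogdh, and its call held in 6 of 21 alternatives and was lost when any single library other than knockout replicate 1 was left out. Of 5 proteases and mitophagy genes, the mitophagy receptor gene Bnip3l fell from 60.7 ± 2.003 to 51.6 ± 3.64 FPKM (SD, n = 4). Of 5 redox enzymes, the peroxiredoxin gene Prdx5 was at 208.89, 212.08, 196.77 and 196.93 FPKM in wild type and 236.24, 225.22, 261.84 and 289.00 in the knockout, and rose to a ratio of 1.24 (adjusted p = 0.0150). The calls of Coq10b, Bnip3l, Dhx30 and Esrra were lost with knockout replicates 3 and 4 left out (adjusted p = 0.0527, 0.0505, 0.06 and 0.0578).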

How the data were processed

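RNA was extracted with Trizol and libraries followed a BGISEQ protocol, per the labels' protocols. The deposited values are FPKM per gene, 1 column per library, to 2 decimals, made by the authors with HISAT, Bowtie2, RSEM and the GRCm38 build, per the submitters' processing notes. Versions and settings: not given in the sources used here. FPKM divides by library size and transcript length, so a shift of abundant genes moves all others, and depth is unknown. A log2 fold change and a q-value (adjusted p-value) for each gene were deposited too, made by a test that no source used here names.

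Groups came from the sample titles. The test was limma 3.58.1 (R 4.3.3), run on log2 of FPKM plus 1 using trend and robust empirical Bayes, two-sided, with Benjamini-Hochberg adjustment over genes of mean FPKM at least 1 (5674 tested, 613 left out). It was also run on simulated data with independent noise for each gene and library. That simulation did not copy the division among the knockout libraries, so it cannot speak to the calls made here. Coordinates and promoters are RefSeq's (GRCm38.p6), and lengths are median GENCODE M21 protein-coding transcript lengths, known for 5635 genes. For some genes, such as Mrps26 at 4278 bases, that length exceeds the RefSeq span of the gene. The lengths, and the results that use them, are therefore approximate. Alternatives covered pseudocounts (0.1 and 5), filters, scalings, variance settings, a replicate block, library weights, transcript length and libraries left out. Combining median-of-ratios scaling with leaving out knockout replicates 3 and 4 was added after seeing the data. Named genes were up to 2 called per functional group, the 6 highest and lowest called, the 3 most abundant and up to 2 called per outside list. Other names account for the remaining genes, and the per-library values of genes outside that rule (such as Mrpl1, Mrps21 and Timm10) were chosen after their values were seen. The values of 1 of the 59 genes are not reported here, though it is in all counts and medians. The genes and lists were chosen with earlier results of these data known.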

Additional observations from a re-analysis of the deposited data

Results flagged for a closer look

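In 6 of the 118 groups of 4 libraries (59 genes in both genotypes), 1 library lay far from the other 3 by Dixon's test at its 95% critical value. Chance alone flags about 1 group in 20, which is 5.9 here. Atp5b was high in wild-type replicate 4 at 540.23 FPKM, and Mrpl34 in the same library at 41.22. Cox7b was low in wild-type replicate 3 at 82.99 FPKM, Ndufb10 in wild-type replicate 2 at 110.27 and Mrps34 in wild-type replicate 1 at 12.87. In the knockout, Mrpl53 was low in replicate 1 at 18.15 FPKM. None of the 6 genes was called by limma with all libraries.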

How the results depend on the processing

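The number of the 59 genes called higher, 2 as reported, was 6 with library weights. It was 1, Mrps26, with a filter at a mean of 5 FPKM, which left 53 of the 59 genes and removed Ndufaf4. It was 0 with median-of-ratios scaling, quantile normalization, the length trend removed, knockout replicates 3 and 4 left out, or this combined with median-of-ratios scaling. The number called lower, 1 as reported, was 7, 5, 3, 3 and 9 under those last 5 settings in turn, 4 with library weights and 2 without trend and robust fitting. Their median log2 fold change, 0.012 as reported, was -0.070, -0.062, -0.058 and -0.11 with median-of-ratios scaling, quantile normalization, the length trend removed and the combined setting, -0.052 with knockout replicates 3 and 4 left out, and higher with library weights (0.066) and equal library sums (0.031). Over all genes, 1195 higher and 375 lower became 524 and 628 with median-of-ratios scaling, 493 and 598 with the length trend removed and 2229 and 746 with library weights. The higher count was 488 with quantile normalization, 666 with knockout replicates 3 and 4 left out and 278 with the combined setting. The cause of these changes was not tested. Leaving out 1 library at a time gave 0 to 3 of the 59 higher and 1 to 3 lower, a median of -0.030 to 0.037, and 647 to 1682 higher and 237 to 544 lower over all genes. Without knockout replicate 4 no gene of the 59 was called higher, and without knockout replicate 1 there were 3 higher and 3 lower. Without wild-type replicate 1, 2 or 3 there was 1 higher. Over 21 alternatives, 40 of the 59 genes were never called. Of 293 values of the 14 named genes, 239 kept their side of the threshold, 50 lost a call, 4 gained one and 0 reversed.

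Samples in both groups carry numbers 1 to 4, but same-numbered libraries did not deviate together (correlations of -0.144 to -0.032). The replicate block left the counts at 2 higher and 1 lower, though Ndufaf4 was no longer called (adjusted p = 0.0509), with 1031 higher and 334 lower over all genes. The spread between libraries limits what could be detected, and the part of depth, which is unknown, was not tested.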
